A study of Mus musculus with 8 samples.

Results

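The mRNA of branched-chain amino acid catabolism was described in the cardiac ventricles of tumor-bearing mice and PBS-injected mice. The genes were chosen by name, with earlier results of these data known. The 10 members of the pathway are Bcat2, Bckdha, Bckdhb, Dbt, Bckdk, Ppm1k, Hibch, Hibadh, Ivd and Mccc1. They are 10 of the 43346 genes in the count table, and all 10 passed the filter on low counts that left 16111 genes to test.

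Leucine, isoleucine and valine are the branched-chain amino acids, and their breakdown takes place largely in mitochondria of muscle, heart and other tissues outside the liver. A transaminase first makes branched-chain keto acids, and the branched-chain keto acid dehydrogenase complex then commits them to oxidation. Separate enzymes carry the 3 carbon skeletons on to acetyl-CoA, acetoacetate and succinyl-CoA, which enter the tricarboxylic acid (TCA) cycle or ketone body metabolism, and the complex is switched off by a kinase and on by a phosphatase.

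RNA from the ventricles of 8 male C57BL/6 mice was sequenced, with 1 library for each mouse. The tumor-bearing group (LLC1, n = 4) received 1000000 cells of the LLC1 line, a mouse Lewis lung carcinoma, under the skin of the flank at 7 weeks of age, and the control group (PBS, n = 4) received the phosphate-buffered saline vehicle at the same age. Ventricles were taken 14 days later from all mice, so the tissue held every cell type of the ventricular wall. Mice are named here by group and replicate code, such as PBS 1-1, and levels are CPM (TMM-normalized counts for each 1000000 counted reads), where TMM is edgeR's trimmed-mean scaling.

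Library totals ran from 15342214 to 19747596 counts in the LLC1 mice and from 12480706 to 16192158 counts in the PBS mice. Bckdhb, the member with the fewest counts, still had 596 to 1048 counts in every mouse. Over all genes tested, edgeR's quasi-likelihood test gave 1406 genes with a Benjamini-Hochberg false discovery rate (FDR) under 0.05, which is 8.73% of the 16111, with 663 higher and 743 lower in tumor-bearing mice. The common biological coefficient of variation was 0.109. The library of PBS 1-1 stood apart from the other PBS libraries, with chi-square values per degree of freedom of 57.9 to 86.1 against them, where all other pairs within a group gave 4.52 to 15.9.

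Of the 10 members, 2 rose in tumor-bearing mice, none fell and 8 did not pass the test. Bckdha, which encodes the E1 alpha subunit of the dehydrogenase complex, rose 1.42-fold, and Ivd, which encodes isovaleryl-CoA dehydrogenase of the leucine branch, rose 1.18-fold. Genes called higher made up 4.12% of all genes tested, and the members, chosen with earlier results known, were not tested as a set. The fitted log2 fold change was above 0 for 8 members and below 0 for Dbt and Hibch, and its median over the 10 members was 0.13, beside -0.01 over all genes tested. With libraries scaled by total counts alone these medians were 0.069 and -0.06. The 4 LLC1 values lay above all 4 PBS values for 3 members, Bckdha, Ivd and Bckdk, and this held for 8.89% of all genes tested. Without PBS 1-1, the mouse whose library stood apart, 3 members were called, where 11.9% of all genes were called in either direction, and with each of the other mice left out in turn the number was 1 to 3, where 3.32% (without PBS 1-3) to 10.1% (without PBS 2-5) of all genes were called.

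**Figure D1:**
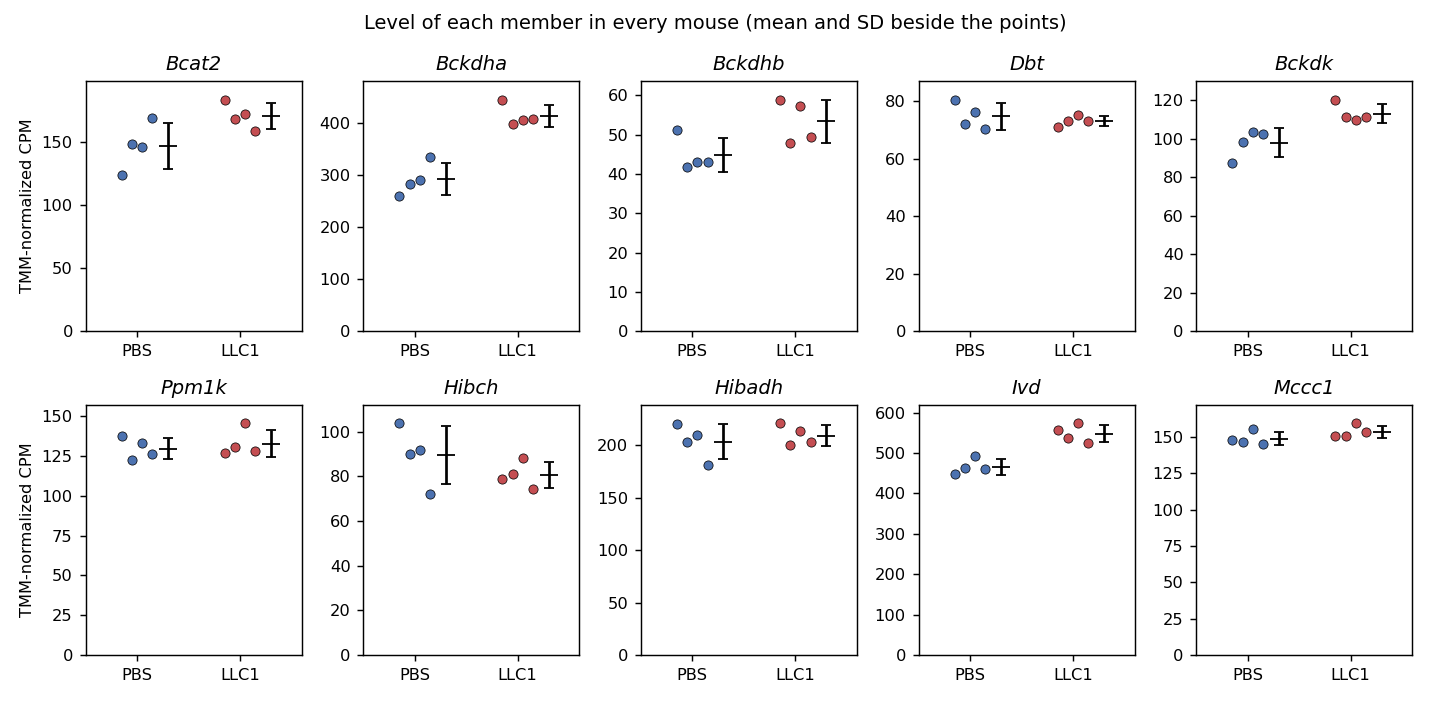
TMM-normalized CPM of the 10 members, with 1 point per mouse (blue PBS, red LLC1) and the mean and SD of each group of 4 mice beside the points, each axis starting at 0. The red points lie wholly above the blue points for Bckdha, Bckdk and Ivd, and the groups overlap for the other 7 members.

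The promoter windows of the 2 members that rose are shown because the table of windows allows the sequence in front of their start sites to be set beside the expression values. The windows run from 250 bases before to 30 bases after the RefSeq start site (build GRCm38.p6), are written 5′ to 3′ on the strand of the gene, and carry in capitals the matches to 4 motifs chosen after the sequences were read. The motifs were the CCAAT box (CCAAT), the CACCC box (CACCC), the GC box (GGGCGG) and a core of the binding sequence of the factor YY1 (AANATGGC), each searched on both strands. The Bckdha window, chr7:25658732-25659011 on the minus strand, and the Ivd window, chr2:118861744-118862023 on the plus strand, read as follows.
Bckdha: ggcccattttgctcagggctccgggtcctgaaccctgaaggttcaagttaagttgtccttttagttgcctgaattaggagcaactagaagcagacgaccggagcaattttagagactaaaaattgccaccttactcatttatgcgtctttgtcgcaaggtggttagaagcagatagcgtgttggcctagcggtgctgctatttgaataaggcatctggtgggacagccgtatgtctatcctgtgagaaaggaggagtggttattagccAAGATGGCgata
Ivd: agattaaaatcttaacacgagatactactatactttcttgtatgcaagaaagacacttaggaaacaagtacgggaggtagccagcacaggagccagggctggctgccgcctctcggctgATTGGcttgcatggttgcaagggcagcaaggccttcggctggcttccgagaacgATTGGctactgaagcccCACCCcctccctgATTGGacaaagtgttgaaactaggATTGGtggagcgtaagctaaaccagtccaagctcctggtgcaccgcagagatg

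The Bckdha window held a single match, the YY1 core at position 19 after the start, and none of the other 3 motifs. The Ivd window held 4 CCAAT boxes, all on the opposite strand and so printed as ATTGG, beginning at positions -131, -77, -47 and -23, and a CACCC box at -60. Of 32851 mouse promoter windows of the same length, 36.1% held a CCAAT box, 55.4% a CACCC box, 34.7% a GC box and 5.22% the YY1 core. Windows were found for 9 of the 10 members, and in their first listed windows a CCAAT box stood in 6 of the 9, a CACCC box in 6, a GC box in 5 and the YY1 core in 1. Between the 2 members that rose, no motif of the 4 was shared. These matches describe letters in the window and were not tested for binding.

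The dehydrogenase complex is built from E1, a decarboxylase of alpha and beta subunits encoded by Bckdha and Bckdhb, E2, the transacylase core encoded by Dbt, and E3, the dihydrolipoamide dehydrogenase encoded by Dld, which is shared with other complexes. Bckdha (chromosome 7, 25629852 to 25658761 in build mm10) stood at 445, 398, 405 and 407 CPM in LLC1 1-2, 1-3, 1-5 and 2-2, and at 260, 282, 291 and 335 CPM in PBS 1-1, 1-3, 2-1 and 2-5. The lowest LLC1 value was above the highest PBS value, and within the PBS group the mice were more widely spread. The means were 414 ± 21.3 and 292 ± 31.1 CPM (SD, n = 4 each), with a log2 fold change of 0.50 ± 0.08 (SE) and an FDR of 0.00412 in edgeR's quasi-likelihood test. By its p-value Bckdha ranked 135 among the 16111 genes, and an exact two-sided permutation test gave p = 0.0286, the smallest that 4 against 4 mice allow. In the count table no gene overlaps Bckdha, but in GENCODE M21 the neighbouring B3gnt8 covers 61.7% of its exon bases on the other strand. As counted, B3gnt8 ends before Bckdha, so its counts, at most 85 in any mouse, do not show other-strand reads within Bckdha. The strand setting is not given. The call of Bckdha held in all 8 fits that left out 1 mouse, with log2 fold changes of 0.45 to 0.57, the lowest of them without PBS 1-1. Among mice whose code begins with 1, the LLC1 values were 398 to 445 CPM and the PBS values 260 and 282 CPM, and among those whose code begins with 2, the single LLC1 mouse stood at 407 CPM and the PBS mice at 291 and 335 CPM.

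Bckdhb (chromosome 9, 83925145 to 84124240), the partner of Bckdha in E1, stood at 58.9, 47.9, 57.3 and 49.3 CPM in LLC1 1-2, 1-3, 1-5 and 2-2 and at 51.2, 41.8, 43.0 and 43.1 CPM in PBS 1-1, 1-3, 2-1 and 2-5. The groups overlapped through PBS 1-1 alone, whose value exceeded those of LLC1 1-3 and 2-2, while the other 3 PBS mice lay close together below every LLC1 mouse. The log2 fold change was 0.25 ± 0.09 (SE), with an FDR of 0.102 in edgeR's quasi-likelihood test, and without PBS 1-1 it was 0.32 with an FDR of 0.0225.

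Dbt (chromosome 3, 116513070 to 116549976) stood at 70.8, 73.2, 75.1 and 73.2 CPM in LLC1 1-2, 1-3, 1-5 and 2-2 and at 80.6, 71.9, 76.1 and 70.3 CPM in PBS 1-1, 1-3, 2-1 and 2-5. All LLC1 values fell inside the PBS range. The means were 73.1 ± 1.72 and 74.7 ± 4.59 CPM, and the 95% interval of the log2 fold change ran from -0.17 to 0.10, entirely below the interval of Bckdha, 0.33 to 0.67 (FDR of Dbt 0.795, edgeR's quasi-likelihood test). The difference between the 2 genes was not tested. For Dld the means were 440 ± 35.7 CPM in LLC1 mice and 458 ± 54.7 CPM in PBS mice, and the log2 fold change was -0.06 (FDR 0.734, same test).

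**Figure D2:**
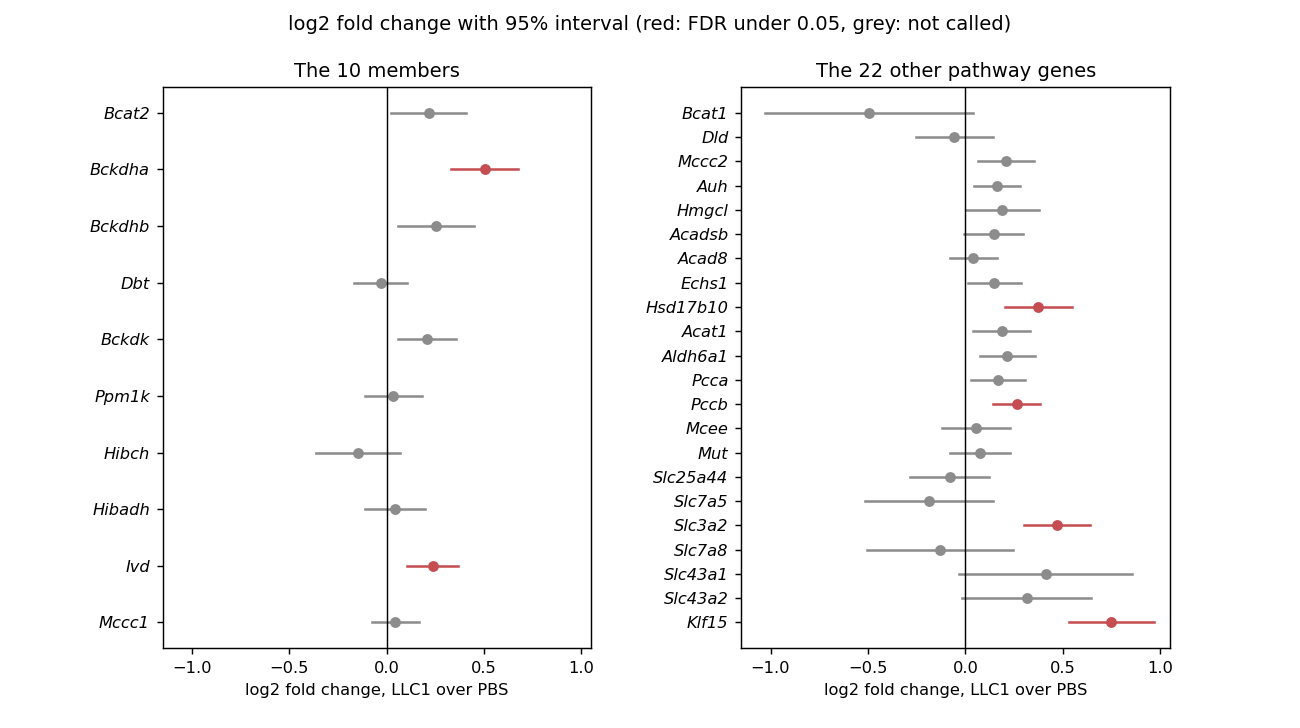
log2 fold change of LLC1 over PBS mice with its 95% interval (n = 4 mice per group, edgeR), for the 10 members on the left and the 22 other pathway genes on the right, with genes under an FDR of 0.05 in red and all others in grey. Among the members, Bckdha at 0.50 and Ivd at 0.24 are red, and Dbt at -0.03 lies on the line at 0.

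The activity of the complex is set by 2 enzymes that act on the E1 alpha subunit. Bckdk encodes the kinase that phosphorylates and switches it off, and Ppm1k encodes the mitochondrial phosphatase that reverses this. Bckdk (chromosome 7, 127904082 to 127909664) stood at 120, 111, 110 and 111 CPM in LLC1 1-2, 1-3, 1-5 and 2-2 and at 87.3, 98.4, 104 and 103 CPM in PBS 1-1, 1-3, 2-1 and 2-5. Every LLC1 value lay above every PBS value. The means were 113 ± 4.93 and 98.0 ± 7.48 CPM, the log2 fold change was 0.21 ± 0.07 (SE), and the FDR was 0.0832 in edgeR's quasi-likelihood test, so Bckdk was not called.

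Ppm1k (chromosome 6, 57506502 to 57535426) stood at 127, 131, 146 and 128 CPM in LLC1 1-2, 1-3, 1-5 and 2-2 and at 137, 122, 133 and 126 CPM in PBS 1-1, 1-3, 2-1 and 2-5. The groups overlapped over most of their range, and the 95% interval of the log2 fold change was -0.11 to 0.18 (FDR 0.786, edgeR's quasi-likelihood test). Scaled to the gene length in the count table, the ratio of Bckdk to Ppm1k was 1.55 ± 0.147 in LLC1 mice and 1.38 ± 0.151 in PBS mice (SD, n = 4 each). The ratio was lowest in PBS 1-1, at 1.15, and the other PBS mice, at 1.41 to 1.48, lay within the LLC1 range of 1.37 to 1.73. Parts of the Ppm1k transcript, at most 192 bases long, match other transcripts at 97% identity or more, so some of its reads could have been counted elsewhere.

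Bcat2 (chromosome 7, 45570153 to 45589710) encodes the mitochondrial transaminase that opens the pathway. Its levels were 183, 168, 172 and 159 CPM in LLC1 1-2, 1-3, 1-5 and 2-2 and 124, 148, 146 and 169 CPM in PBS 1-1, 1-3, 2-1 and 2-5. Only PBS 2-5 reached into the LLC1 range, and PBS 1-1 was the lowest of all mice. The log2 fold change was 0.22 ± 0.09 (SE) with an FDR of 0.147 in edgeR's quasi-likelihood test, and without PBS 2-5 it was 0.28 with an FDR of 0.0464. Without PBS 1-1 it was 0.14 with an FDR of 0.221. An RNA on the other strand, 0610005C13Rik, covers 15.9% of the exon bases of Bcat2 in GENCODE M21 and had at most 199 counts in any mouse. The cytosolic transaminase gene Bcat1 was near the detection limit, at 0.950 ± 0.0801 CPM in LLC1 mice and 1.35 ± 0.328 CPM in PBS mice (log2 fold change -0.50, FDR 0.228, edgeR's quasi-likelihood test).

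In the leucine branch, isovaleryl-CoA dehydrogenase takes the first step after the complex, and methylcrotonyl-CoA carboxylase, whose biotin-carrying subunit is encoded by Mccc1, the next. Ivd (chromosome 2, 118861954 to 118882909) stood at 558, 538, 574 and 524 CPM in LLC1 1-2, 1-3, 1-5 and 2-2 and at 447, 462, 492 and 461 CPM in PBS 1-1, 1-3, 2-1 and 2-5. The groups did not overlap, and the gap between the lowest LLC1 and the highest PBS mouse was smaller than the range within either group. The means were 548 ± 21.8 and 466 ± 18.9 CPM, the log2 fold change was 0.24 ± 0.06 (SE), and the FDR was 0.0322 in edgeR's quasi-likelihood test. An exact permutation test gave p = 0.0286, the smallest that 4 against 4 mice allow. Bckdk, whose groups also did not overlap, had the same value without being called. With libraries scaled by their total counts alone, the log2 fold change was 0.18 and the FDR 0.160. Leaving out LLC1 1-2, 1-3, 1-5 or 2-2 or PBS 1-3 also ended the call, with log2 fold changes of 0.21 to 0.25 and FDRs of 0.0535 to 0.104.

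Mccc1 (chromosome 3, 35959311 to 36000678) stood at 150, 150, 159 and 153 CPM in LLC1 1-2, 1-3, 1-5 and 2-2 and at 148, 146, 155 and 145 CPM in PBS 1-1, 1-3, 2-1 and 2-5. PBS 2-1 lay within the LLC1 range and the other PBS mice just below it. Its log2 fold change was 0.04 with a 95% interval of -0.08 to 0.17 (FDR 0.660, edgeR's quasi-likelihood test), and its coefficients of variation, 2.76% and 3.02%, were low in both groups. Mccc2, which encodes the other subunit of the carboxylase, was at 75.6 ± 2.95 CPM in LLC1 mice and 65.4 ± 4.43 CPM in PBS mice without overlap (log2 fold change 0.21, FDR 0.0683, same test).

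In the valine branch, Hibch encodes the hydrolase that frees 3-hydroxyisobutyrate from coenzyme A, and Hibadh the dehydrogenase that oxidizes it. Hibch (chromosome 1, 52844929 to 52920986) stood at 78.6, 80.9, 88.4 and 74.5 CPM in LLC1 1-2, 1-3, 1-5 and 2-2 and at 104, 89.8, 91.7 and 72.1 CPM in PBS 1-1, 1-3, 2-1 and 2-5. It had the lowest log2 fold change of the members, -0.15 ± 0.10 (SE), with an FDR of 0.380 in edgeR's quasi-likelihood test and PBS mice at both ends of the range. Without PBS 1-1 it was -0.07, and without PBS 2-5 it was -0.24 with an FDR of 0.0645. Hibadh (chromosome 6, 52546228 to 52640389) stood at 221, 200, 213 and 203 CPM in LLC1 1-2, 1-3, 1-5 and 2-2 and at 220, 203, 210 and 181 CPM in PBS 1-1, 1-3, 2-1 and 2-5. The groups overlapped, and the 95% interval of the log2 fold change was -0.11 to 0.20 (FDR 0.757, same test).

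PBS 1-1 was the lowest of the PBS mice in 4 of the 10 members, Bckdha, Ivd, Bckdk and Bcat2, which include both members that rose, and the highest in 5, Bckdhb, Dbt, Ppm1k, Hibch and Hibadh. Without it the log2 fold change of Bckdha went from 0.50 to 0.45, that of Ivd from 0.24 to 0.22, that of Bckdk from 0.21 to 0.16 and that of Bcat2 from 0.22 to 0.14. Summed over the members, it had 1660 CPM, close to PBS 1-3 at 1666 CPM, and the 4 LLC1 sums, 1883 to 2013 CPM, lay above the 4 PBS sums, 1660 to 1742 CPM. Bckdha and Ivd had the highest CPM of the members in every mouse, and the sums of the other 8 members, 951 to 1020 CPM in LLC1 and 909 to 959 CPM in PBS mice, overlapped.

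Per kilobase of the gene length given in the count table, Bckdha had the highest level of the members in both groups, at 234 ± 12.0 CPM per kb in LLC1 mice and 165 ± 17.6 in PBS mice. In PBS mice the order then ran from Hibadh (91.4 ± 7.46) and Ivd (84.6 ± 3.44), which overlapped, to Mccc1 (49.9 ± 1.51), Bcat2 (37.6 ± 4.70), Bckdk (32.0 ± 2.44), Bckdhb (24.8 ± 2.40), Ppm1k (23.3 ± 1.24), Dbt (22.7 ± 1.39) and Hibch (14.7 ± 2.15). Neighbours also overlapped between Bcat2 and Bckdk, between Bckdhb and Ppm1k and between Ppm1k and Dbt. In LLC1 mice Ivd (99.6 ± 3.96) stood before Hibadh (94.1 ± 4.34), with overlapping ranges, and the other places were the same. The order depends on the length taken for each gene. Counting the exon bases of all GENCODE M21 transcripts, a length chosen after the values were seen, Hibadh has 10179 bases in place of 2226 and Mccc1 10952 in place of 2977. On those lengths Hibadh ran from 17.8 to 21.6 CPM per kb in the 4 PBS mice and Mccc1 from 13.3 to 14.2, which put them in places 8 and 10 of the 10. Bckdha at 154 ± 16.4 and Ivd at 84.6 ± 3.44 then stood first and second in both groups, and Bckdha remained several times above Bckdhb and Dbt in every mouse.

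**Figure D3:**
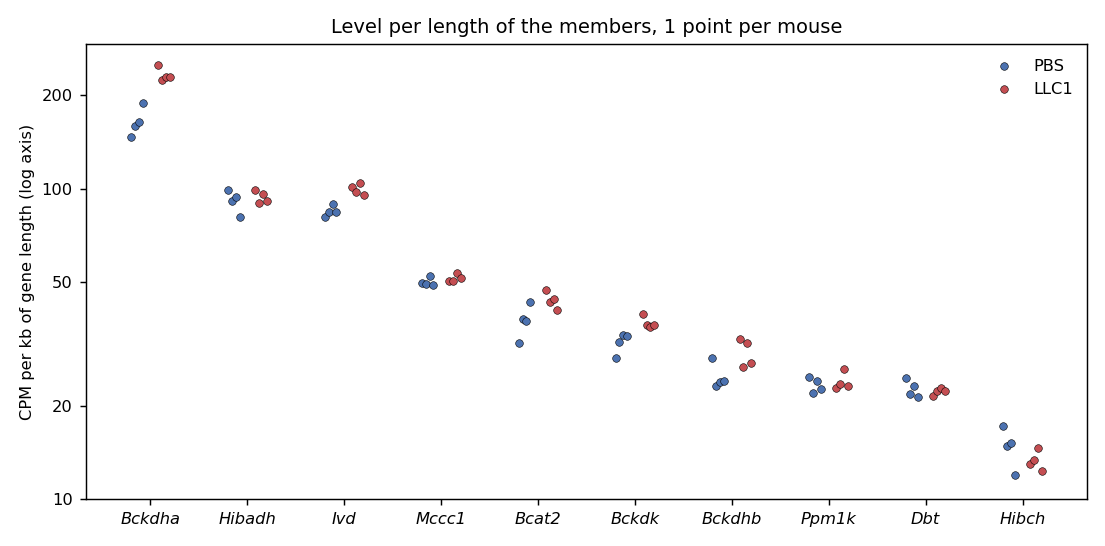
CPM per kilobase of gene length of the 10 members on a log axis, with 1 point per mouse (blue PBS, red LLC1), ordered by the PBS mean. Bckdha lies above every other member, at 165 CPM per kb on average in PBS mice and 234 in LLC1 mice, and Hibch lies lowest, on the lengths given in the count table.

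Ratios between members of the same mouse do not depend on how a library is scaled. The ratio of Bckdha to Dbt, chosen after the values were seen and per kilobase of the length in the count table, was 11.7, 10.1, 10.0 and 10.3 in LLC1 1-2, 1-3, 1-5 and 2-2 and 6.01, 7.29, 7.11 and 8.85 in PBS 1-1, 1-3, 2-1 and 2-5. The groups did not overlap, and the means were 10.5 ± 0.773 and 7.32 ± 1.17. Bckdhb to Dbt was 1.33 ± 0.151 and 1.09 ± 0.0580, again without overlap and with PBS 1-1, at 1.16, the highest of the PBS mice. Bckdha to Bckdhb was 7.94 ± 0.608 and 6.71 ± 1.13 with overlap, since PBS 2-5, at 7.90, exceeded LLC1 1-2 and 1-5. In the leucine branch, Ivd to Mccc1 was 1.94 ± 0.0635 in LLC1 mice and 1.69 ± 0.0407 in PBS mice without overlap. As the pairs were picked for their values, these ratios carry no test.

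**Figure D4:**
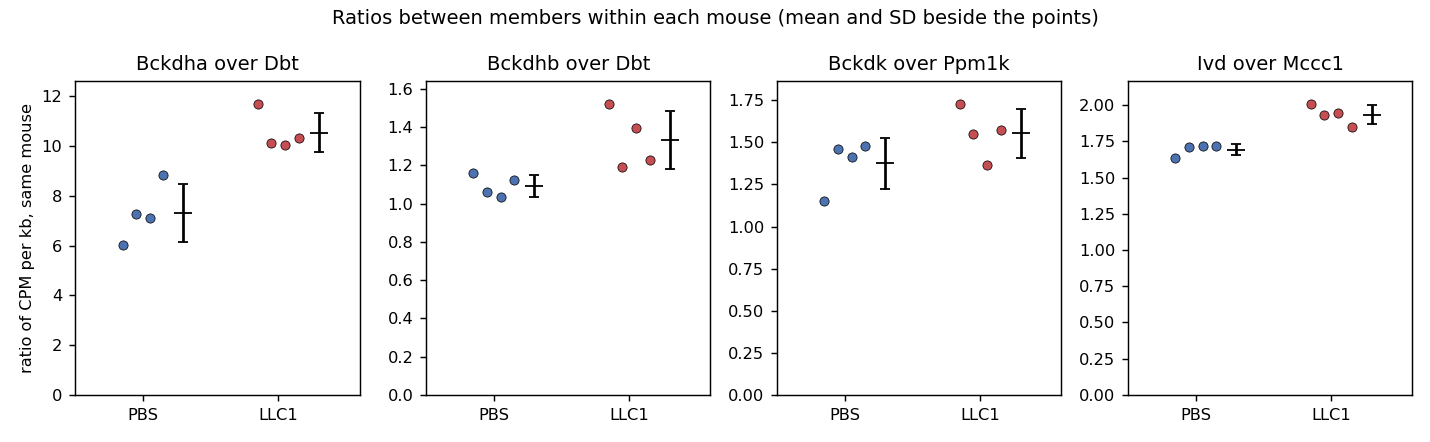
Ratio of CPM per kilobase between pairs of members within each mouse (blue PBS, red LLC1), with the mean and SD of 4 mice per group beside the points and axes starting at 0. The LLC1 points lie above all PBS points for Bckdha over Dbt, Bckdhb over Dbt and Ivd over Mccc1, and the groups overlap for Bckdk over Ppm1k.

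Beyond the members, 22 other genes of the pathway, comprising further enzymes, the amino acid carriers and the regulator Klf15, were all tested. Of these 4 rose, none fell and 18 did not pass, beside the 4.12% of all genes called higher. The median log2 fold change was 0.17, and in 9 of the 22 the LLC1 values lay above all PBS values, beside 8.89% of all genes tested. Without PBS 1-1, 7 of the 22 were called higher, where 11.9% of all genes were called in either direction, and without PBS 1-3, 2 were, where 3.32% of all genes were called.

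Klf15 encodes a Krüppel-like transcription factor known to raise genes of branched-chain amino acid breakdown in heart and skeletal muscle. It stood at 100, 110, 115 and 103 CPM in LLC1 1-2, 1-3, 1-5 and 2-2 and at 56.5, 70.5, 53.7 and 73.6 CPM in PBS 1-1, 1-3, 2-1 and 2-5. The groups were well apart, and the log2 fold change was 0.75 ± 0.10 (SE) with an FDR of 0.00167 in edgeR's quasi-likelihood test, the largest of the 32 pathway genes.

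Slc3a2, the heavy chain of the surface carriers of large neutral amino acids, stood at 48.0, 49.1, 40.8 and 44.3 CPM in LLC1 1-2, 1-3, 1-5 and 2-2 and at 32.7, 35.4, 32.4 and 31.0 CPM in PBS 1-1, 1-3, 2-1 and 2-5. All LLC1 mice lay above all PBS mice, with a log2 fold change of 0.47 ± 0.08 (SE) and an FDR of 0.00501 (edgeR's quasi-likelihood test). None of the other surface carriers listed was called. Slc7a5 and Slc7a8, at 4.87 and 4.73 CPM in LLC1 mice, had log2 fold changes of -0.18 and -0.13 (FDR 0.478 and 0.681, same test). For Slc43a1 and Slc43a2 these were 0.41 and 0.31 (FDR 0.228 and 0.219, same test). Slc25a44, the mitochondrial carrier of branched-chain amino acids, was at 20.5 ± 1.34 CPM in LLC1 mice and 21.6 ± 2.43 CPM in PBS mice (log2 fold change -0.08, FDR 0.628, same test).

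Hsd17b10, which acts in isoleucine breakdown and in the processing of mitochondrial tRNA, was at 124 ± 12.3 CPM in LLC1 mice and 96.1 ± 6.46 CPM in PBS mice, a log2 fold change of 0.37 (FDR 0.0154, edgeR's quasi-likelihood test). Pccb encodes the beta subunit of propionyl-CoA carboxylase, which serves isoleucine and valine. Its level was 145 ± 3.63 CPM in LLC1 mice and 121 ± 3.38 CPM in PBS mice, a log2 fold change of 0.26 (FDR 0.0147, same test). The 18 genes that did not pass had log2 fold changes from -0.50 to 0.41, with a lowest FDR of 0.0603. Without PBS 1-3 only Klf15 and Slc3a2 of these other pathway genes were called, so the calls of Hsd17b10 and Pccb both ended.

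Other routes of mitochondrial fuel oxidation were set beside the pathway, again read against the 4.12% of all genes called higher. Of 17 TCA cycle enzymes 6 rose and none fell, with a median log2 fold change of 0.18, led by Idh2 at 0.54 (FDR 0.00111) and Idh3g at 0.35 (FDR 0.00934, edgeR's quasi-likelihood test). Of 17 genes of fatty acid oxidation 6 also rose and none fell, with a median of 0.21, led by Cpt1b, the muscle carnitine palmitoyltransferase of the outer mitochondrial membrane, at 0.33 (FDR 0.00649), and Etfb, a subunit of the electron transfer flavoprotein that takes electrons from Ivd and other acyl-CoA dehydrogenases, at 0.30 (FDR 0.0342). The pyruvate dehydrogenase complex is a close relative of the branched-chain complex, and its list of 11 genes took in its own kinases and phosphatases beside the subunits. Only the kinase gene Pdk2 rose, at 0.37 (FDR 0.0168), and the median over subunits and regulators together was 0.06. Pdk4, a kinase gene known to respond to fasting, ranged from 718 to 1523 CPM in LLC1 mice and from 449 to 1245 CPM in PBS mice (log2 fold change 0.47, FDR 0.315, same test). The medians of the 10 members and the 22 other pathway genes, 0.13 and 0.17, thus lay below those of fatty acid oxidation and the TCA cycle, and no difference between the lists was tested.

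**Figure D5:**
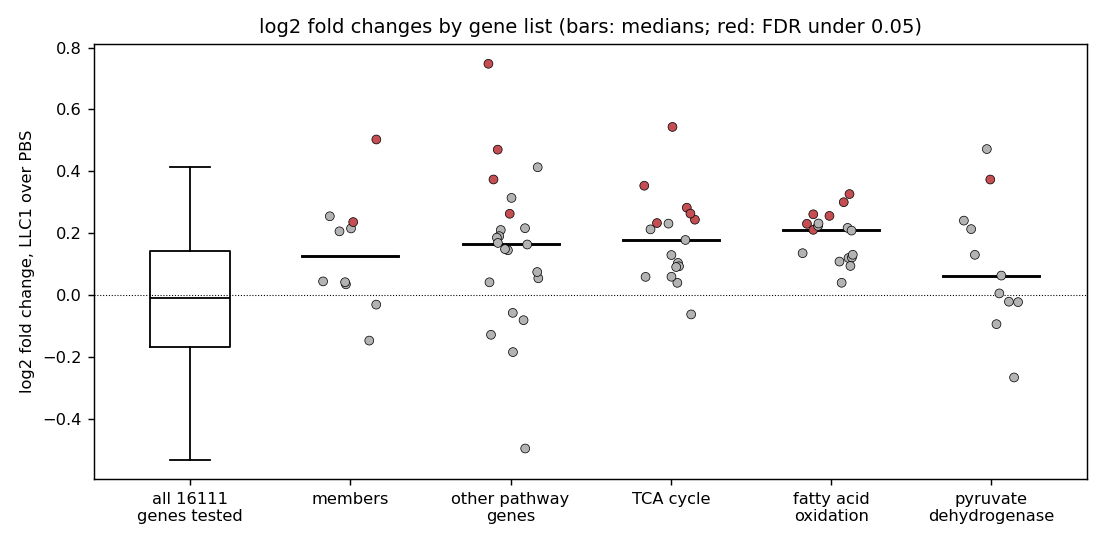
log2 fold change of LLC1 over PBS mice by gene list, with 1 point per gene, red points for an FDR under 0.05, thick bars for list medians, and at the left a box of quartiles and median with whiskers from the 5th to the 95th percentile of all 16111 genes tested. The list medians run from 0.06 for the pyruvate dehydrogenase complex with its regulators to 0.21 for fatty acid oxidation, beside -0.01 for all genes.

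In whole ventricle, fewer cells of a type and less RNA per cell cannot be told apart. The summed level of 8 cardiomyocyte markers was 107953 to 117009 CPM in LLC1 mice and 99231 to 101021 CPM in PBS mice, without overlap, and Myh6, the only one of the 8 called higher, made up much of it. The other 7 summed to 54026 to 60550 CPM in LLC1 and 52119 to 55387 CPM in PBS mice, with overlap. Of these 7, 5 had log2 fold changes above 0, up to 0.22 for Tnnt2 (FDR 0.0526, edgeR's quasi-likelihood test, LLC1 above all PBS mice), and 2 below 0, Actc1 at -0.05 and Ryr2 at -0.17. The median log2 fold change over all 8 cardiomyocyte markers was 0.11, beside 0.13 over the 10 members of the pathway. Genes called lower made up 4.61% of all genes tested. Of 6 fibroblast markers 4 were lower, the collagen genes Col1a1, Col1a2 and Col3a1 and Lum, while Dcn and Pdgfra had log2 fold changes of 0.07 and -0.07 (FDR 0.612 and 0.654, edgeR's quasi-likelihood test), and the sums, 955 to 1065 CPM in LLC1 and 1061 to 1546 CPM in PBS mice, overlapped. Of 6 endothelial markers 2 were lower (700 to 792 CPM in LLC1 and 816 to 1062 CPM in PBS mice, without overlap). Of 3 leukocyte markers tested 1 was lower (sums of at most 78.7 CPM in LLC1 and 106 CPM in PBS mice, with overlap), and of 5 smooth muscle and pericyte markers none was called (755 to 817 CPM in LLC1 and 867 to 1026 CPM in PBS mice, without overlap). The fitted log2 fold change was below 0 for all 6 endothelial, all 3 tested leukocyte, all 5 smooth muscle and pericyte and 5 of the 6 fibroblast markers. The part of these shifts in the rise of Bckdha and Ivd was not tested. Erythroid markers, none of 5 called and all 5 with log2 fold changes above 0, summed to 1428 to 5180 CPM in LLC1 and 1556 to 3097 CPM in PBS mice, and of 3 atrial markers tested none was called (113 to 339 and 123 to 249 CPM). Defining genes of adipocytes and hepatocytes had at most 7 counts in any mouse and those of skeletal muscle at most 21.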

How the data were processed

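Ventricular RNA of 8 mice was prepared with the TruSeq RNA Library Prep Kit V2 and sequenced as paired-end reads. The authors deposited raw counts of reads per gene, not normalized, in 1 table with gene positions and lengths on build mm10. The submitters' processing notes name CASAVA, STAR and featureCounts. The gene annotation and the strand setting are not given in the sources used here. Groups came from the stated treatment, and the meaning of the first number of the replicate code is not labelled.

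Counts of all genes were compared with edgeR 4.0.16 (R 4.3.3) using filterByExpr, TMM factors, estimateDisp, glmQLFit and glmQLFTest, with Benjamini-Hochberg adjustment over 16111 genes and calls at an FDR under 0.05. The standard error is the absolute log2 fold change over the square root of F. P-values set the difference between the groups against the spread between these mice. The exact permutation test used log2 CPM (prior count 2) over 70 arrangements of the mice. Levels between genes were compared per kilobase of the deposited length and, as an alternative added after seeing the data, of the GENCODE exon bases.

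The members and lists were chosen with earlier results of these data known. Named were all members, 5 preset genes of the wider pathway (Dld, Mccc2, Bcat1, Slc25a44, Klf15), its called genes and its surface carriers, up to 2 called genes per comparison list, and Pdk4. Single marker genes, the surface carriers not called, the promoter motifs and the ratios other than Bckdk to Ppm1k were chosen after their values were seen. Alternatives were DESeq2 1.42.0, limma-voom (limma 3.58.1), other normalizations and filters, robust empirical Bayes, a covariate for the first number of the code, offsets for gene length (loess span 0.3) and each mouse left out. Overlaps came from the deposited positions and GENCODE M21, similar transcripts from BLAST 2.17.0 (97% identity over 150 bases), and sequences from RefSeq. The steps were tested on simulated data. No pair of libraries agreed within sampling noise.

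Without strand, reads of a gene and its antisense partner cannot be told apart. In the deposited table no other gene overlaps Bckdha, and B3gnt8, which ends before it at 25629490 and has at most 85 counts in any mouse, covers 61.7% of the Bckdha exon bases on the other strand in GENCODE M21. Mccc1os overlaps Mccc1 with at most 185 counts, and the pseudogene Gm4596, with at most 160 counts, lies within Dbt.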

Additional observations from a re-analysis of the deposited data

Results flagged for a closer look

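Within each group, every member was examined for a mouse far from the other 3, over 20 groups of 4 mice, of which chance flags about 1 in 20. A single value stood out. Bckdhb in PBS 1-1 was at 51.2 CPM, where the other PBS mice were at 41.8 to 43.1 CPM. The gap to the nearest mouse exceeded the 95% critical value of Dixon's test for 4 values. PBS 1-1 is also the mouse whose library stood apart from the other PBS libraries, and the part of this in its Bckdhb value was not tested.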

How the results depend on the processing

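Bckdha, Klf15 and Slc3a2 were called higher in all 9 alternative fits with all mice and in all 8 fits that left out 1 mouse. Ivd was called in 8 of the 9 and in 3 of the 8. Bckdk was called only with offsets for gene length (0.24, FDR 0.0408 in edgeR's test). The genes called numbered 1018 to 1757 in the alternatives with all mice and 542 (without PBS 1-3) to 1949 (without PBS 1-1) with 1 mouse left out. The members called numbered 1 when libraries were scaled by total counts alone (6.32% of all genes called), 3 with offsets for gene length (9.89%), and 1 to 3 with 1 mouse left out, and the 22 other pathway genes called 2 to 7 with 1 mouse left out, in fits that called 3.32% to 11.9% of all genes. Scaling by total counts alone lowered the median over the members from 0.13 to 0.069 and the median of all genes from -0.01 to -0.06. Of the calls, 47.2% were higher in tumor-bearing mice, 22.1% with total-count scaling and 61.2% with the length offsets. Log2 fold changes near 0 changed sign. With total-count scaling Hibadh was at -0.010, Mccc1 at -0.010 and Ppm1k at -0.018, with length offsets Dbt was at 0.0063, and with 1 mouse left out Dbt ran from -0.064 to 0.0066, Hibadh from -0.015 to 0.082 and Ppm1k from -0.012 to 0.063. With 1 mouse left out Hibch ran from -0.24 to -0.069 and Bcat2 from 0.14 to 0.28, without a change of sign. The causes were not tested. The ratio of Bckdk to Ppm1k kept its direction, with a log2 difference of 0.18 from all mice and of 0.094 (without PBS 1-1) to 0.24 with 1 mouse left out. No paired analysis was run, because the labels give no pairing of mice between the groups.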
